A study of Aspergillus nidulans with 8 samples.

Results

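Colonies of the filamentous fungus Aspergillus nidulans grown on YES medium were compared with colonies grown on CYA medium after 4 and 10 days, with 1 array for each medium and day. These 4 arrays were chosen by their labelled medium and day from the 8 arrays of the series, and every gene on them was used. Of the 11127 genes with probes on the array, 11109 were tested. All colonies were stab-inoculated on agar and kept in darkness, and whole colonies were scraped off for total RNA, so each array averages the cell types of a colony. The groups were YES day 4, YES day 10, CYA day 4 and CYA day 10. Arrays of another medium, CYAs, on days 4 and 10 entered 1 fit, and CYA day 8 is shown beside some values. The names of the media were not spelled out in the labels, no strain is named here, and both YES titles read YESs. No label says that cultures were replicated, so each value below is that of 1 array, and the spread within a medium is a spread over days.

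As background, filamentous fungi switch on clusters of neighbouring genes for secondary metabolites such as sterigmatocystin, penicillin and emericellamide in ways that depend strongly on the medium and the age of the colony. Iron is taken up with siderophores, small iron-chelating molecules that peptide synthetases assemble, that are secreted, and that membrane transporters bring back into the cell. In Aspergillus the regulator HapX acts when iron is scarce and the GATA factor SreA represses siderophore genes when iron is plentiful. Nitrate, proline and other nitrogen sources, and gluconeogenic carbon sources, likewise have their own regulated gene sets.

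Levels are log2 signals relative to the 75th percentile of the array, so 0 is that percentile, and differences are YES minus CYA on the same day. The 75th percentile of the signal was 1976 on YES day 4, 4977 on YES day 10, 3026 on CYA day 4 and 1843 on CYA day 10. The number of genes well above background per array was 10916 to 11106, and the number of arrays limits the precision. YES days 4 and 10 and CYA day 4 lay on slide 1, whereas CYA day 10 lay on slide 2, so at day 10 slide and medium cannot be told apart. CYA day 8, which is outside the comparison, lay on slide 1, and its values are given beside many of the day 10 values. Across genes, which are not independent replicates, YES day 10 correlated with CYA day 10 at r = 0.868 and with CYA day 8 at r = 0.951. The 2 CYA arrays of days 8 and 10, on different slides, correlated at r = 0.897. YES day 4 correlated with CYA day 4 at r = 0.954.

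On day 4, 1010 genes (9.09% of those tested) were at least 2-fold higher and 968 (8.71%) at least 2-fold lower on YES than on CYA. On day 10 the numbers were 1788 (16.1%) higher and 2161 (19.5%) lower. On both days, 330 genes (2.97%) were at least 2-fold higher and 440 (3.96%) at least 2-fold lower, and these shares are the background against which the gene groups below are read. The median size of a difference was 0.41 on day 4 and 0.70 on day 10, and 56.8% of genes had the same sign on both days (28.1% higher and 28.7% lower on YES). Every probe of the gene pointed the same way on both days in 311 of the 330 genes and in 430 of the 440. Over all genes tested, 655 (5.9%) were at least 2-fold higher and 852 (7.67%) at least 2-fold lower on YES day 10 than on CYA day 8. Compared with that array, YES day 10 was also at least 2-fold higher for 92 of the 330 genes and of opposite sign for 100, and it was at least 2-fold lower for 154 of the 440 and of opposite sign for 92.

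No gene was called by limma at a Benjamini-Hochberg adjusted p under 0.05 (0% of those tested, smallest adjusted p = 0.608), while 893 genes had an unadjusted p under 0.05, 441 of them higher and 452 lower on YES. The fit used 6 arrays, including the CYAs arrays of days 4 and 10 to share the estimate of the spread, with medium and day as factors and 2 residual degrees of freedom. The median standard error of a YES minus CYA difference was 0.41. Limma's p-values measure only the spread between these arrays that additive effects of medium and day leave over, and counts at a fixed fold are descriptions without a test.

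**Figure D1:**
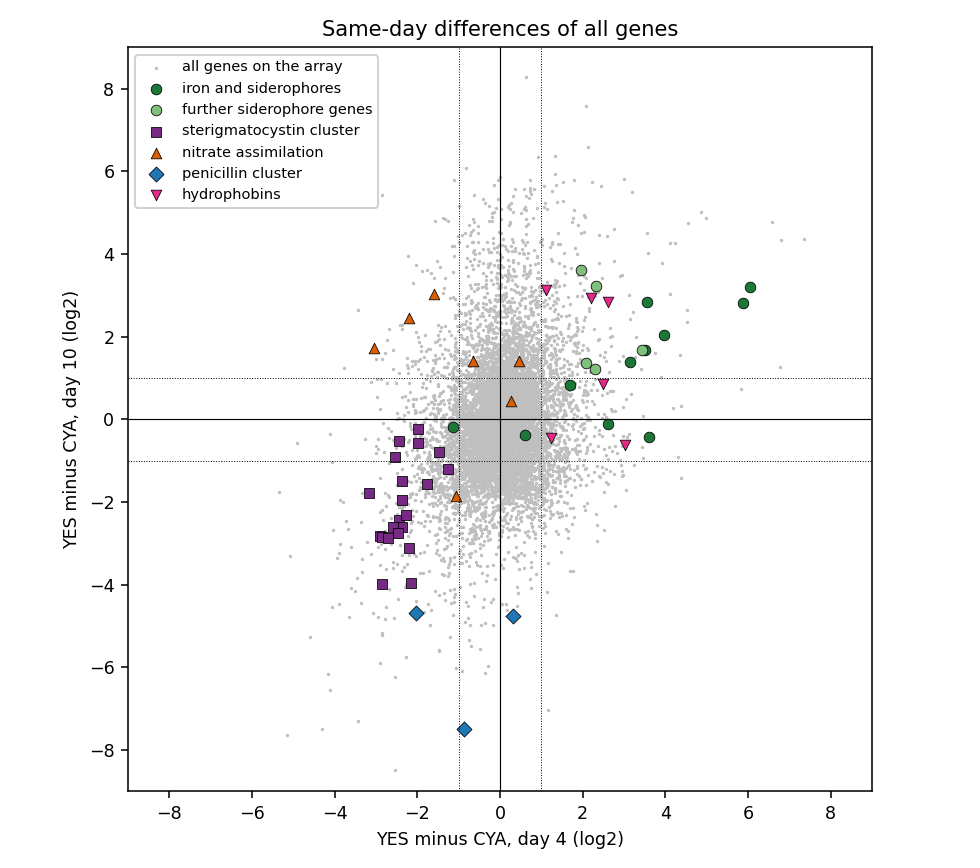
YES minus CYA differences (log2) of all genes on day 4 (horizontal axis) and day 10 (vertical axis), with the genes of 6 lists coloured and dotted lines at the 2-fold thresholds. Siderophore genes lie mostly to the right, all 21 sterigmatocystin genes lie at lower left, and 4 nitrate genes lie at upper left.

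Siderophore genes were higher on YES. Of the 11 genes of the iron and siderophore list, 6 were at least 2-fold higher on both days (the same was true of 2.97% of all genes) and 0 were at least 2-fold lower on both, with list medians of 3.51 on day 4 and 1.39 on day 10, against 0.07 and -0.13 over all genes tested. All 5 genes of a second list, taken by their reference symbols (sidH, sidJ, mirD, sit1 and sit2), were at least 2-fold higher on both days, with medians of 2.30 and 1.69. These lists were drawn up with earlier results of these arrays known, the second after values were seen, and their counts are not independent evidence of a direction.

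The gene of the siderophore synthetase sidD, which assembles the secreted fusarinine siderophores, had a level of 0.09 on YES day 4 and -2.40 on YES day 10, against -3.89 on CYA day 4 and -4.45 on CYA day 10. Pairs of levels below are in the same order of days. Both YES arrays lay above both CYA arrays. The YES minus CYA difference was 3.98 on day 4 and 2.05 on day 10, which gives a mean of 3.01 ± 0.62 (SE; limma adjusted p = 0.619). On CYA day 8 it stood at -3.29, less than 2-fold below YES day 10.

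The gene sidI, whose product in Aspergillus fumigatus activates mevalonate for fusarinine synthesis, had levels of -1.03 and -4.09 on YES, against -7.08 and -7.30 on CYA. That is 66.3-fold higher on day 4 and 9.22-fold higher on day 10, and the media did not overlap (mean difference 4.63 ± 0.85, SE; limma adjusted p = 0.619). Its 3 probes differed by 4.58 to 7.21 on day 4 and by 0.60 to 5.21 on day 10. On CYA day 8 sidI stood at -7.15, close to the other CYA arrays.

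The gene of the siderophore transporter mirB, which takes up triacetylfusarinine, had levels of 3.67 and -2.77 on YES, against -2.21 and -5.59 on CYA. It was 58.9-fold higher on YES on day 4 and 7.06-fold on day 10, and its level on YES day 10 lay below that on CYA day 4. The neighbouring locus AN8539 of the list had 2.12 and -3.00 on YES, against -1.40 and -4.67 on CYA.

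The genes of the iron regulators HapX and SreA differed in opposite directions. The level of hapX was 0.83 and -0.90 on YES, against -2.31 and -2.29 on CYA (differences 3.14 and 1.39), and -1.70 on CYA day 8. The level of sreA was -2.44 and -1.08 on YES, against -1.31 and -0.90 on CYA (differences -1.13 and -0.18), so only its day 4 value was more than 2-fold lower.

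Other members differed on 1 day or little. The intracellular siderophore synthetase gene sidC was 1.69 higher on day 4 and 0.82 on day 10. AN5823 and AN7800 were higher by 2.61 and 3.60 on day 4 but differed by -0.12 and -0.43 on day 10. The transporter gene mirC differed by 0.60 and -0.38. Of the transporter genes sit1 and sit2, sit2 had 0.11 and 0.41 on YES, against -1.85 and -3.21 on CYA, and sit1 had -2.26 and -1.87 on YES, against -4.58 and -5.10 on CYA. Their CYA day 8 levels (-0.66 for sit2 and -2.09 for sit1) lay nearer to YES than to the other CYA arrays. Set against CYA day 8, YES day 10 had a median difference of 0.80 over the 11 genes, with 4 at least 2-fold higher, and of 0.69 over the 5, with 1 at least 2-fold higher (5.9% of all genes were).

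**Figure D2:**
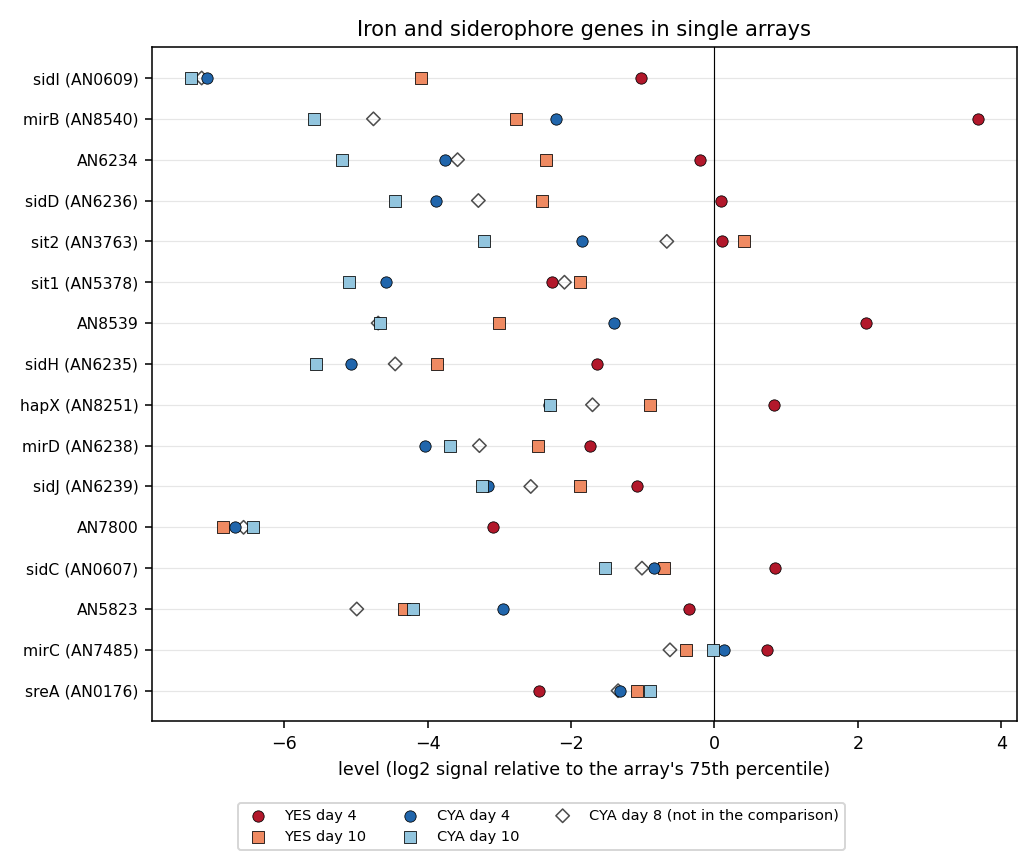
Levels (log2 signal relative to the array's 75th percentile) of the 16 iron and siderophore genes in single arrays: circles are day 4, squares are day 10, red is YES, blue is CYA, and open diamonds are CYA day 8. The red symbols lie right of the blue ones of the same shape for 12 of the 16 genes, the others being AN7800, AN5823, mirC and sreA.

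The sterigmatocystin genes were lower on YES. Sterigmatocystin is a carcinogenic polyketide and a precursor of the aflatoxins in related species. All 21 tested genes of the cluster list were lower on YES on both days, 16 of them at least 2-fold on both (3.96% of all genes were), with list medians of -2.38 on day 4 and -2.32 on day 10. The median level of the list was 0.21 on YES day 4 and -5.40 on YES day 10, against 2.57 on CYA day 4 and -2.96 on CYA day 10. Both media therefore had far lower signals on day 10 than on day 4, and the difference between the media was of like size at both levels.

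Within the list, AN7812 had levels of 0.39 and -5.87 on YES, against 3.25 and -1.88 on CYA. Its differences were -2.86 and -3.99, with a mean of -3.42 ± 1.82 (SE; limma adjusted p = 0.652). AN7806 had 2.45 and -5.14 on YES, against 4.59 and -1.17 on CYA. AN7809 had -1.92 and -7.01 on YES, against 0.98 and -4.17 on CYA. AN7810 had -0.28 and -5.93 on YES, against 2.57 and -3.09 on CYA. In each of these 4 genes the day 4 level on YES lay above the day 10 level on CYA. The 5 members short of 2-fold on day 10 were AN7805, AN7814, AN7815, AN7820 and AN7823, with day 10 differences of -0.25 to -0.91.

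The CYA day 8 array bears on the day 10 values of this cluster. Its median level for the list was -4.47, and against it YES day 10 differed by a median of -0.20, with 6 of 21 genes at least 2-fold lower (7.67% of all genes were). The day 4 difference, between arrays of 1 slide, does not involve that array or CYA day 10. Of the runs of neighbouring genes lower on YES on both days, 2 lay in this region, 9 genes around AN7806 to AN7812 with medians of -2.84 on day 4 and -2.85 on day 10, and 5 genes around AN7816 to AN7819 with medians of -2.37 and -2.32. The first run took in tpcL (AN11017), which had 1.33 and -6.85 on YES, against 4.18 and -1.63 on CYA.

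**Figure D3:**
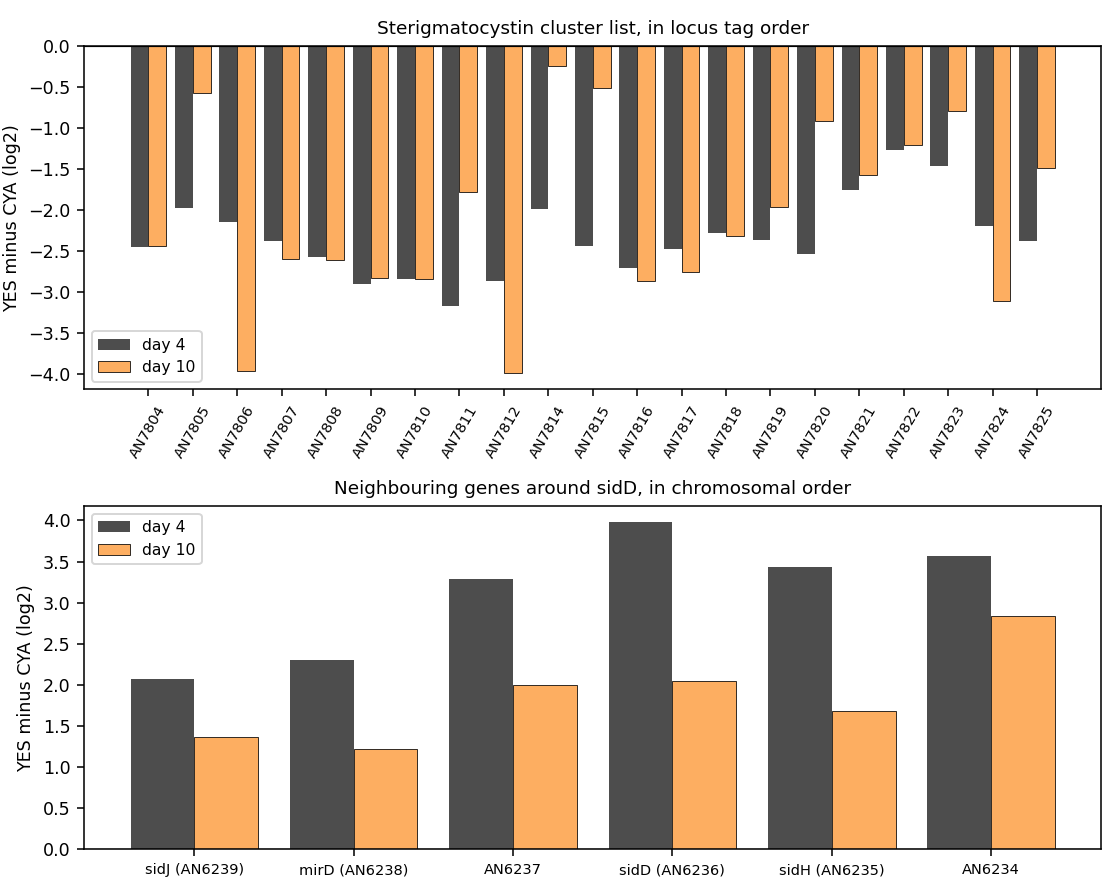
YES minus CYA differences (log2) on day 4 (dark bars) and day 10 (orange bars) for the 21 sterigmatocystin genes (top) and for 6 neighbouring genes around sidD (bottom). Every bar in the top panel is below 0 and every bar in the bottom panel is above 0, and in the bottom panel each gene has a larger value on day 4 than on day 10.

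Other secondary metabolite genes differed from list to list. The emericellamide cluster, which makes a lipopeptide, had all 4 genes higher on YES on both days, with medians of 1.65 and 1.93. Of these, 3 were at least 2-fold higher on both days (2.97% of all genes were). AN2548 of this cluster had -2.09 and -4.27 on YES, against -4.80 and -6.29 on CYA (mean difference 2.36 ± 0.39, SE; limma adjusted p = 0.619). AN2549 had -1.35 and -2.11 on YES, against -2.75 and -5.01 on CYA. On CYA day 8 these genes stood at -4.70 and -2.25. On YES day 10, 0 of the 4 genes were at least 2-fold higher than there (5.9% of all genes were).

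The genes for terrequinone, an indole-derived quinone, were lower on YES. All 3 tested genes were at least 2-fold lower on both days (3.96% of all genes were). The medians were -2.28 on day 4 and -5.75 on day 10. All 3 were also at least 2-fold lower on YES day 10 than on CYA day 8 (7.67% of all genes were). AN8516 had -6.76 and -7.95 on YES, against -2.64 and -1.40 on CYA, and stood at -3.79 on CYA day 8. AN8514 had -2.30 and -4.92 on YES, against -0.02 and 0.83 on CYA. Both YES arrays lay below both CYA arrays for each of these genes. The lowest probe well above background stood at -7.16 on YES day 4 and -8.44 on YES day 10, near the levels of AN8516. The 3 probes of AN8516 differed by -8.30 to -3.54 on day 10. For the third gene, AN8513, the 3 probes differed by -3.04 to 0.09 on day 4.

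The genes for penicillin, a beta-lactam antibiotic, gave their largest differences on day 10. AN2622 had -2.46 and -6.25 on YES, against -1.58 and 1.23 on CYA. AN2623 had -3.91 and -3.63 on YES, against -1.88 and 1.06 on CYA. AN2621 had -7.51 and -9.15 on YES, against -7.83 and -4.40 on CYA, and was well above background on 1 of the 2 YES arrays. The list medians were -0.88 on day 4 and -4.75 on day 10. At least 2-fold lower were 1 of the 3 genes on day 4 and all 3 on day 10 (8.71% and 19.5% of all genes were). All 3 were also at least 2-fold lower on YES day 10 than on CYA day 8 (7.67% of all genes were).

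Genes of the monodictyphenone cluster, another polyketide pathway, were mostly higher on YES on day 4, with a median of 1.23. At least 2-fold higher on day 4 were 10 of 12 (9.09% of all genes were). The median on day 10 was 0.43. On that day 2 genes were at least 2-fold higher and 2 at least 2-fold lower (16.1% and 19.5% of all genes were). The gene tpcC had 5.13 and 2.93 on YES, against 3.99 and 2.14 on CYA. Its neighbour tpcB had 4.13 and 1.14 on YES, against 2.94 and -0.42 on CYA, and was the 1 member at least 2-fold higher on both days. The gene arp1, named after a melanin pathway gene of Aspergillus fumigatus, had 6.24 and 1.13 on YES, against 4.96 and 2.64 on CYA, and 1.66 on CYA day 8, so that its same-day difference had opposite signs on the 2 days.

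The asperthecin genes nscA, nscB and nscC had far higher levels on day 10 than on day 4 on both media. The polyketide synthase gene nscA had -5.21 and 4.95 on YES, against -5.20 and 3.52 on CYA, and 5.51 on CYA day 8. The list medians were -0.01 on day 4 and 1.25 on day 10. The orsellinic acid, asperfuranone and dba lists had 0 members at least 2-fold lower on both days (3.96% of all genes were). At least 2-fold higher on both days were 0, 0 and 1 (2.97% of all genes were). That gene was AN7900 of the dba list, with -1.02 and -3.60 on YES, against -2.13 and -5.86 on CYA. AN7895 of the same list had 4.78 and 2.49 on YES, against 4.05 and -3.10 on CYA and 2.31 on CYA day 8.

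Genes of the colony surface were higher on YES on day 4. Hydrophobins are small proteins that coat spores and aerial hyphae. All 6 genes of the hydrophobin list were at least 2-fold higher on YES on day 4 (9.09% of all genes were). The medians were 2.36 on day 4 and 1.84 on day 10. At least 2-fold higher on both days were 3 of the 6 (2.97% of all genes were). The spore hydrophobin gene rodA had 4.51 and -3.41 on YES, against 2.00 and -4.25 on CYA. A second one, dewA, had 3.69 and -3.30 on YES, against 1.47 and -6.24 on CYA, with a mean difference of 2.58 ± 2.14 (SE; limma adjusted p = 0.74). AN7539 had -2.69 and -1.51 on YES, against -3.80 and -4.65 on CYA, and AN0940 had -0.21 and -2.41 on YES, against -2.81 and -5.25 on CYA. On CYA day 8 dewA stood at -2.92 and AN0940 at -2.80, near their YES day 10 levels. Over the list the median difference of YES day 10 from CYA day 8 was -0.14. Of the 6 genes, 1 was at least 2-fold higher and 1 at least 2-fold lower (5.9% and 7.67% of all genes were).

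The labelled tissue is mycelium, and markers of other structures were measured in the same RNA. The 8 markers of asexual sporulation (conidia and the conidiophores that bear them) were all well above background on the 4 arrays, and their mean level was -0.21 on YES day 4 and -3.22 on YES day 10, against -1.58 on CYA day 4 and -3.83 on CYA day 10. On day 4, 5 of the 8 were at least 2-fold higher on YES (9.09% of all genes were). These included rodA and dewA, the laccase gene yA (-1.88 on YES, against -3.65 on CYA), the pigment synthase gene pksP (2.54 on YES, against 1.35 on CYA) and the regulator gene abaA (-3.95 on YES, against -5.34 on CYA). The central regulator brlA differed by 0.98 on day 4 and 0.89 on day 10. On day 10, 2 of the 8 were at least 2-fold higher and 1 at least 2-fold lower (16.1% and 19.5% of all genes were). The sign of the difference was opposite on the 2 days for 3 of the 8. On CYA day 8 the mean level of the 8 markers was -3.06. Against that array the list median on YES day 10 was -0.12. Of the 8, 0 were at least 2-fold higher and 1 at least 2-fold lower on YES day 10 (5.9% and 7.67% of all genes were). In such whole-colony RNA a different number of cells of a type and a different amount of RNA per cell cannot be told apart, and the part of spore-bearing cells in the other differences was not tested.

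The 7 markers of the sexual cycle, in fruiting bodies and the Hülle cells that surround them, were also well above background on all 4 arrays, with mean levels of -1.85 and -1.30 on YES, against -0.89 and 0.38 on CYA. The median difference of the list was -0.001 on day 4 and -0.82 on day 10, and 3 of the 7 had opposite signs on the 2 days. Against CYA day 8 the list median on YES day 10 was 0.195, with 1 gene at least 2-fold lower (7.67% of all genes were). Of the 7, 2 genes were at least 2-fold lower on YES on both days (3.96% of all genes were). AN7349 had -5.41 and 0.52 on YES, against -1.25 and 6.69 on CYA, and 6.52 on CYA day 8, with a mean difference of -5.16 ± 0.64 (SE; limma adjusted p = 0.619). AN7388 had -0.10 and 0.69 on YES, against 2.68 and 2.48 on CYA, and 1.58 on CYA day 8, less than 2-fold above YES day 10. The regulators nsdD and steA differed by 0.11 and 0.01 on day 4 and by -0.63 and -0.77 on day 10. Of the velvet complex genes, which link development to secondary metabolism, veA differed by -0.23 and -1.28 and laeA by 0.15 and -1.05.

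Some genes of gluconeogenic and ethanol use were lower on YES. The 8 genes of gluconeogenesis and the glyoxylate cycle had medians of -0.73 and -1.15. At least 2-fold lower on both days were 2 of them (3.96% of all genes were), of which AN5634 differed by only -1.01 on day 4. By sign, 6 of the 8 were lower on both days (28.7% of all genes were). The other two, AN6653 and AN7468, differed by 0.11 and 0.01 on day 4 and by -1.21 and -1.38 on day 10. Against CYA day 8 the median on YES day 10 was -0.64, with 4 of 8 genes at least 2-fold lower (7.67% of all genes were). The phosphoenolpyruvate carboxykinase gene acuF had -0.33 and -0.44 on YES, against 1.07 and 3.30 on CYA (mean difference -2.57 ± 0.74, SE; limma adjusted p = 0.619), and 1.82 on CYA day 8. The acetate regulator gene facB had -1.13 and -1.22 on YES, against -0.45 and -0.13 on CYA, and -1.18 on CYA day 8, about its level on YES day 10. All 3 genes of the ethanol list were at least 2-fold lower on both days (3.96% of all genes were). AN8979 had -2.09 and -5.02 on YES, against 3.25 and -3.26 on CYA. AN8978 had -3.75 and -4.47 on YES, against -1.61 and -1.80 on CYA, and -3.70 on CYA day 8. Against CYA day 8 the list median on YES day 10 was -0.77. At least 2-fold lower was 1 of 3 genes, AN8979 (7.67% of all genes were). The glycolysis list had medians of 0.10 and -0.08, and the sign of its median over both days was not the same in all settings tried.

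Nitrogen genes differed by day. In the nitrate assimilation list the median difference was -1.06 on day 4 and 1.41 on day 10. The nitrate reductase gene niaD had -4.11 and -5.19 on YES, against -1.07 and -6.92 on CYA, and its 3 probes differed by -0.41 to 3.97 on day 10. The nitrate transporter gene crnA had -3.36 and -1.63 on YES, against -1.76 and -4.67 on CYA. The nitrite reductase gene niiA had -2.68 and -4.17 on YES, against -2.03 and -5.58 on CYA. On CYA day 8 these 3 genes stood at -7.67, -4.01 and -5.73, also below YES day 10. The pathway regulator nirA differed by 0.26 and 0.43, and the general nitrogen regulator areA by 0.45 and 1.40. AN8168 was the 1 gene of the 7 at least 2-fold lower on both days, with -2.74 and -2.35 on YES, against -1.68 and -0.50 on CYA.

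Of 12 genes of other nitrogen use, 4 were at least 2-fold higher on both days (2.97% of all genes were) and 0 lower. The list medians were 0.21 and 1.48. AN6932 had 0.66 and 0.00 on YES, against -0.71 and -5.68 on CYA, and -5.92 on CYA day 8. AN7463 had 0.08 and -0.80 on YES, against -0.94 and -5.02 on CYA, and -3.99 on CYA day 8. The proline permease gene prnB had -3.26 and -0.42 on YES, against -3.65 and -3.50 on CYA, and the proline oxidase gene prnD had -2.49 and 2.12 on YES, against -1.83 and -1.94 on CYA. On CYA day 8 prnB stood at -1.70 and prnD at 1.43. The glutamine synthetase gene glnA differed by -0.23 and -0.39.

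Of the peptidase and peptide uptake list, 2 of 12 genes were at least 2-fold higher on both days (2.97% of all genes were). The carboxypeptidase-type gene sxa2, named after a pheromone-degrading enzyme of Schizosaccharomyces pombe, had 0.88 and -1.07 on YES, against -3.23 and -4.10 on CYA (mean difference 3.57 ± 0.47, SE; limma adjusted p = 0.619). The oligopeptide transporter gene optB had -2.41 and 0.82 on YES, against -3.96 and -2.43 on CYA, and 0.07 on CYA day 8.

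Some stress, metal and cell wall genes differed by a large amount on at least 1 day. The catalase gene catA had 1.30 and -1.86 on YES, against 1.78 and 3.70 on CYA, and 2.28 on CYA day 8. AN6642 of the osmotic and sodium list had 3.04 and 0.88 on YES, against 4.39 and 4.64 on CYA. The zinc transporter gene zrfA had -0.66 and -6.62 on YES, against -4.97 and -5.70 on CYA. Of the 5 zinc uptake genes, 4 were at least 2-fold higher on day 4 (9.09% of all genes were) and 1 lower. On day 10, 0 of them were at least 2-fold higher (16.1% of all genes were). The chitin synthase gene chsD had -3.93 and 2.96 on YES, against -3.50 and -1.17 on CYA, and 3.02 on CYA day 8. The alpha-glucan synthase gene ags1 had -2.34 and -2.84 on YES, against -2.83 and -5.86 on CYA.

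The ergosterol gene list had 10 of 15 genes higher by sign on both days (28.1% of all genes were). On both days, 0 were at least 2-fold higher and 1 at least 2-fold lower (2.97% and 3.96% of all genes were). That gene, ergS, was at -7.38 and -5.60 on YES, against -3.78 and -2.50 on CYA. Its level on CYA day 8 was -5.28, near its YES day 10 level. Its YES day 4 level lay below -7.16, the lowest probe well above background on that array. Lists of genes with housekeeping roles had small median differences. The medians on days 4 and 10 were 0.11 and 0.01 for 15 proteasome genes, 0.20 and 0.40 for 7 ribosomal protein genes, and 0.47 and 0.06 for 23 ribosome biogenesis genes. Of the 3 genes of the housekeeping list, the actin gene act1 differed by 0.07 and 0.39 and gpdA by -0.09 and 0.37. The third, AN1182, differed by 0.42 and 1.05, so that 1 of the 3 was at least 2-fold higher on day 10 (16.1% of all genes were). Of 5 genes of the osmotic and sodium list, 2 were at least 2-fold lower on both days (3.96% of all genes were). Of 5 genes of the oxidative stress list, 1 was so. The medians on days 4 and 10 were 0.18 and 0.35 for 22 amino acid synthesis genes, -0.11 and -0.27 for 17 plant polysaccharide degradation genes, 0.34 and -0.01 for 5 trehalose and mannitol genes, 0.15 and -0.89 for the osmotic list and -0.22 and -1.42 for the oxidative stress list. The 19 cell wall synthesis genes had medians of 0.17 and -0.44. At least 2-fold higher on day 10 were 4 of them (16.1% of all genes were), and at least 2-fold lower were 7 (19.5%). The medians were -0.67 and 0.03 for the orsellinic acid list, -0.49 and 0.15 for the dba list, -0.27 and -0.69 for the asperfuranone list and 0.12 and -0.81 for the velvet list.

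**Figure D4:**
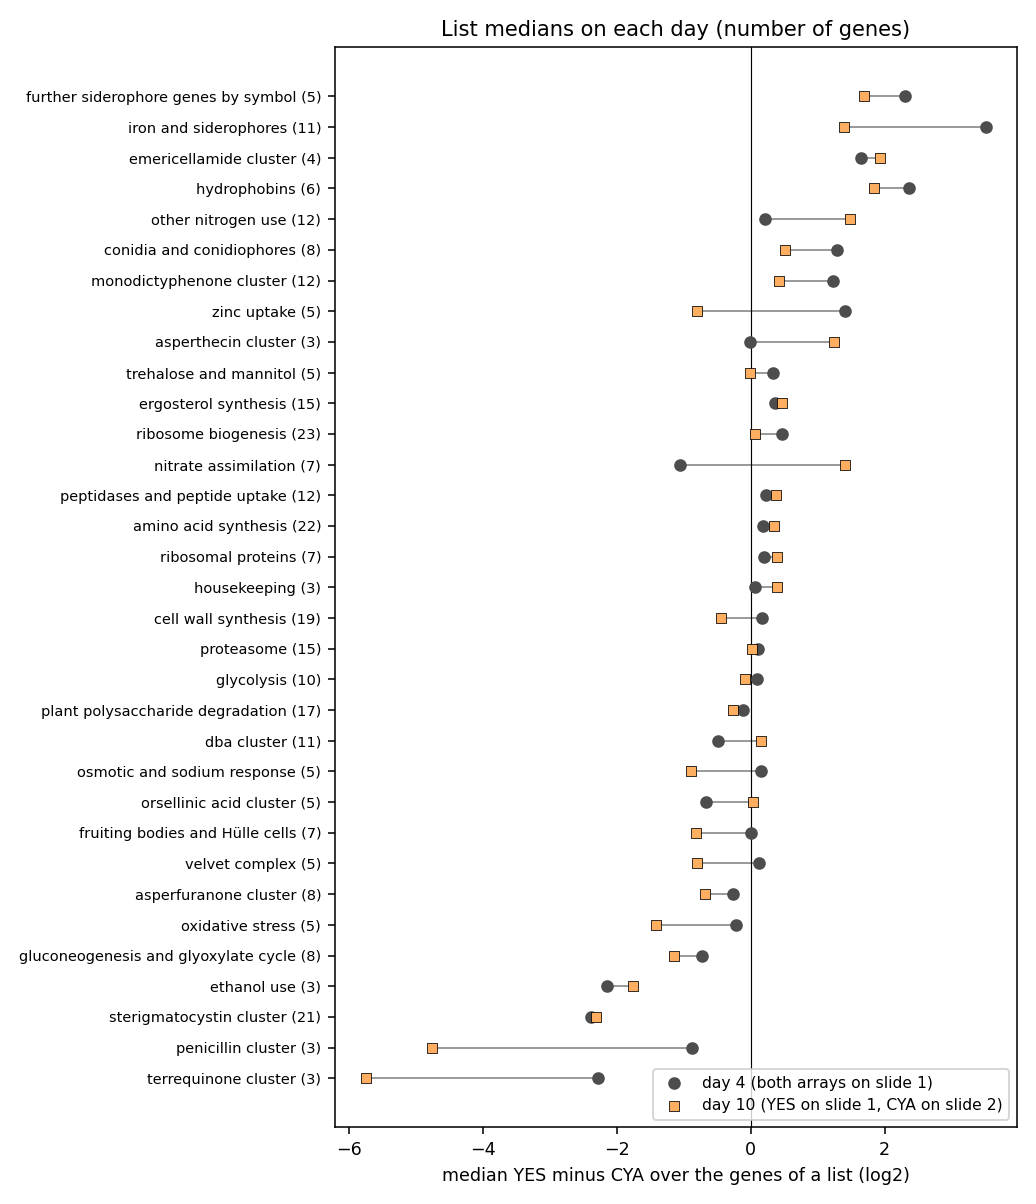
Median YES minus CYA difference (log2) of each of the 33 gene lists on day 4 (dark circles) and day 10 (orange squares), sorted by the mean over days, with the number of genes tested in parentheses. Siderophore, emericellamide and hydrophobin lists lie at the top and the sterigmatocystin, penicillin and terrequinone lists at the bottom, and the nitrate list lies at -1.06 on day 4 and 1.41 on day 10.

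The genes with the largest difference that held on both days were ranked by the smaller of their 2 same-day differences, and carried no reference symbol. AN3781 led the genes higher on YES, with 1.59 and -0.67 on YES, against -3.29 and -5.69 on CYA (mean difference 4.95 ± 0.55, SE; limma adjusted p = 0.619). AN5558 had 4.64 and 5.72 on YES, against -0.35 and 0.85 on CYA, and 5.18 on CYA day 8. AN8365 had 0.32 and 0.34 on YES, against -6.28 and -4.43 on CYA, and 0.27 on CYA day 8. For AN5558 and AN8365, YES day 10 and CYA day 8 had nearly the same level.

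The other 8 genes of the upper group, AN3781 included, were also at least 2-fold higher on YES day 10 than on CYA day 8. AN4140 had 0.75 and 0.54 on YES, against -3.79 and -4.21 on CYA, and -1.26 on CYA day 8 (mean difference 4.65 ± 0.32, SE; limma adjusted p = 0.608). AN8915 had -0.77 and -0.95 on YES, against -5.00 and -5.22 on CYA (mean difference 4.25 ± 0.29, SE; limma adjusted p = 0.608), and its 3 probes differed by 4.12 to 4.45 on day 4 and by 3.98 to 4.46 on day 10. The neighbours AN7322 and AN7323 differed by 7.35 and 6.80 on day 4 and by 4.37 and 4.35 on day 10. AN11011, AN10343 and AN11211 differed by 3.57 to 4.11 on day 4 and by 3.78 to 4.27 on day 10.

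Among the genes lower on YES, AN5463 had -6.97 and -7.36 on YES, against -1.81 and 0.28 on CYA (mean difference -6.40 ± 2.22, SE; limma adjusted p = 0.619). Its YES day 4 level was near -7.16, the lowest probe well above background on that array. AN3079 had -0.40 and -1.13 on YES, against 3.25 and 3.64 on CYA, and 3.11 on CYA day 8. AN6668 had -3.38 and -3.76 on YES, against 0.91 and 3.75 on CYA, and AN1799 had -3.19 and -2.88 on YES, against 1.42 and 2.38 on CYA. AN6782, AN6778, AN7866 and AN1952 differed by -3.52 to -4.07 on day 4 and by -4.08 to -4.55 on day 10. AN7349 and AN8516, described above, complete the 10.

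**Figure D5:**
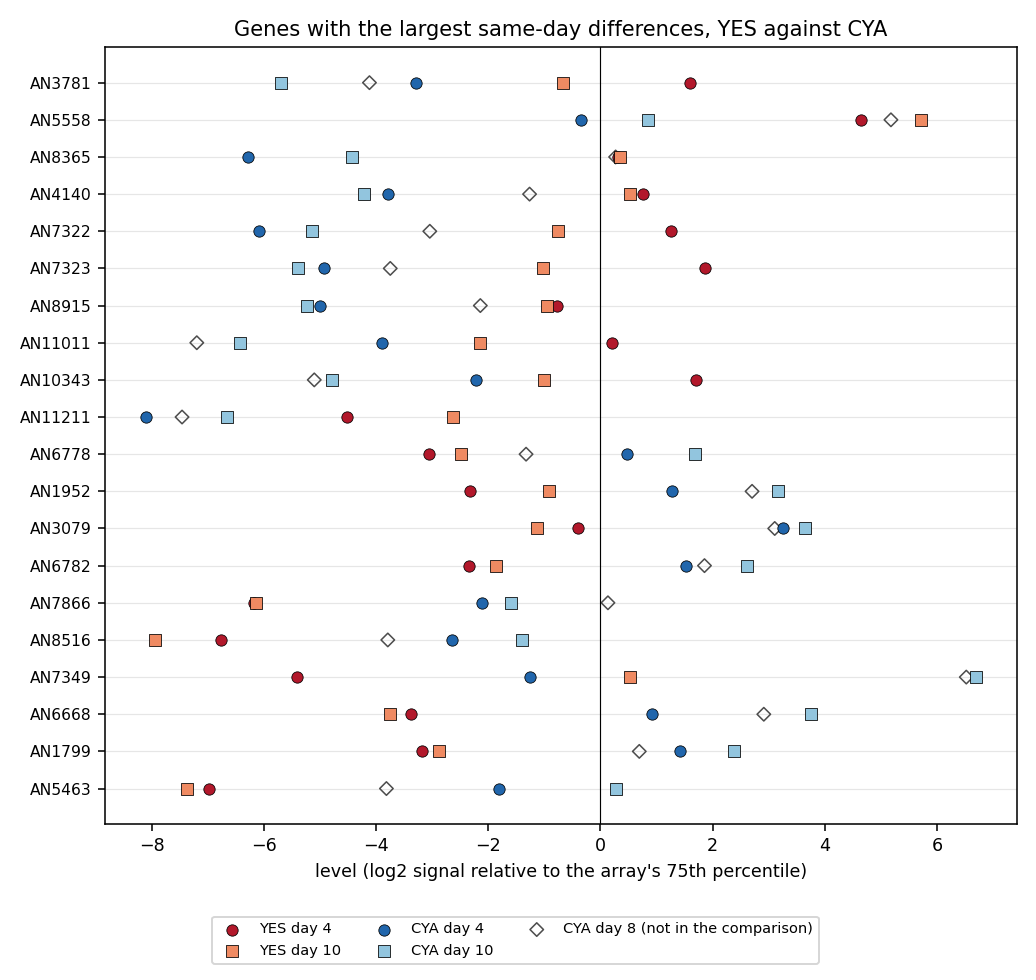
Levels (log2 signal relative to the array's 75th percentile) in single arrays of the 10 genes highest (upper rows) and the 10 lowest (lower rows) on YES by the smaller same-day difference; red is YES, blue is CYA, circles are day 4, squares are day 10, and open diamonds are CYA day 8. Red symbols lie right of blue ones of the same shape in the upper rows and left of them in the lower rows, as the choice of genes fixes.

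Runs of at least 4 neighbouring genes, all at least 2-fold apart in 1 direction on both days, numbered 8 (3 higher and 5 lower on YES) and held 42 genes. They were chosen by these values and carry no test. The run around sidD held sidJ, mirD, AN6237, sidD, sidH and AN6234, with medians of 3.36 on day 4 and 1.84 on day 10. Within it AN6237, in neither siderophore list, had 0.30 and -0.44 on YES, against -2.99 and -2.44 on CYA. A run of 4 genes ended in hapX, with medians of 1.87 on day 4 and 1.43 on day 10. Another run of 4 ended in ugd2, with medians of 1.31 and 1.62. The lower runs included the 2 of the sterigmatocystin region and a run of 5 genes with the terrequinone genes AN8513, AN8514 and AN8516. A run of 4 held the ethanol genes AN8978 and AN8979, and a run of 5 from AN0023 to AN0026 had medians of -2.38 and -1.90. In this last run, AN0025 had -8.76 and -7.84 on YES and was well above background on 1 of the 2 YES arrays. AN0024 had -8.06 on YES day 4, where the lowest probe well above background stood at -7.16. The 3 probes of AN0026 differed by -5.53 to 0.07 on day 4. Against CYA day 8, YES day 10 differed by -2.16 for AN0026 and -1.33 for AN0025. For AN0024, AN10005 and AN0023 it differed by 0.26, 0.35 and 0.61.

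Among the 770 genes at least 2-fold apart in the same direction on both days, 31 had a reference symbol, 21 higher and 10 lower on YES. Those not in a list above were chosen after their values were seen. The pheromone precursor gene ppgA had -1.68 and -0.67 on YES, against -2.83 and -3.85 on CYA, and its YES day 10 level was 0.33 above that on CYA day 8. The gene tmpA, a membrane protein of conidiation signalling, had 1.42 and -1.82 on YES, against -0.41 and -3.11 on CYA, and -2.67 on CYA day 8. The pH regulator gene pacC had 2.27 and 1.39 on YES, against 3.55 and 4.46 on CYA, and 2.23 on CYA day 8. The early sexual development gene esdC had 2.99 and 4.21 on YES, against 4.46 and 5.32 on CYA, and 4.13 on CYA day 8. In a further 352 genes the difference was at least 2-fold on both days in opposite directions, 210 (1.89%) higher on day 4 and lower on day 10, and 142 (1.28%) the other way.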

How the data were processed

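Transcript levels were measured on 1-colour (Cy3) Agilent arrays, 1 per medium and day, and samples were grouped by labelled medium and day. The replicate numbers only name arrays within a medium. The intensity values of each spot were made with Agilent Feature Extraction 10.5.1.1, per the file headers. The log2 values deposited by the authors come as a table with 1 value per gene. Limma and RMA are named in the submitters' processing notes, without their versions or what each did. Its columns had medians of 9.66 to 9.69 and correlated at 0.98 with each array's background-corrected, quantile-normalized log2 signals. Its scale was therefore read as log2 of single arrays, with centring by gene absent and its correction and normalization unknown. It was used only as an alternative.

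Of 34210 features per array, 32793 probed genes. The processed signals were put on the log2 scale and each array's 75th percentile was subtracted. Controls and outlier spots (from 0 up to 19 on an array) were dropped. Probes of a gene were averaged (10705 genes had 3 probes, 256 had 2 and 166 had 1). Testing required at least 1 probe well above background on 2 or more arrays, and 18 genes did not meet this. Limma 3.58.1 in R 4.3.3 fitted medium and day over the 6 arrays of days 4 and 10, so the coefficient is the mean of the same-day differences. An interaction of medium and day cannot be tested. The fit was tested on simulated data. Alternatives were other background corrections, scalings, filters, probe summaries, array sets and slide blocks (statmod 1.5.0).

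Locus tags matched the RefSeq table of assembly ASM1142v1 for 10413 genes, 779 with a symbol, and the table gave the order of neighbours. It served only for names and neighbours, and no coordinates are given. Gene lists (33) were drawn up by locus tag from general knowledge or by reference symbol. The members and lists were chosen with earlier results of these data known, and 10 lists were added after values were seen. Named genes were the 10 highest and 10 lowest by the smaller same-day difference, synthase and regulator genes of a list with its 4 largest members, the 4 largest rises and 4 largest falls of the difference between days among genes 2-fold apart in opposite directions, and up to 3 members of the 4 longest runs. Other members of a list that are named, and genes named by symbol alone, were chosen after their values were seen.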

Additional observations from a re-analysis of the deposited data

Results flagged for a closer look

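These results had YES minus CYA differences of opposite sign on days 4 and 10. Each rests on 1 array per medium and day, so the difference between days was not tested. The median of the nitrate assimilation list was 1.41 on day 10, against -1.06 on day 4.

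Among genes at least 2-fold apart in opposite directions, the difference was larger on day 10 by 8.28 for AN1863, 6.92 for AN1548, 6.37 for AN9219 and 6.25 for AN9198 (log2). With day 4 given before day 10, AN1863 had -4.06 and 4.14 on YES, against -1.21 and -1.29 on CYA, and 4.48 on CYA day 8. AN9198 had -5.16 and 2.11 on YES, against -3.78 and -2.77 on CYA, and 2.09 on CYA day 8. AN1548 had -1.62 and 2.48 on YES, against -0.50 and -3.32 on CYA, and 1.15 on CYA day 8. AN9219 had -5.70 and 0.03 on YES, against -4.14 and -4.78 on CYA, and -6.51 on CYA day 8.

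The change between days was -8.21 for AN7865, -6.09 for AN2349, -5.78 for AN1566 and -5.44 for AN11222. AN7865 had 0.29 and -7.14 on YES, against -0.88 and -0.10 on CYA, and 0.82 on CYA day 8. AN2349 had 0.84 and -4.46 on YES, against -0.51 and 0.29 on CYA, and -3.16 on CYA day 8. AN1566 had 1.84 and -4.44 on YES, against -2.53 and -3.03 on CYA, and -4.09 on CYA day 8. AN11222 had -0.76 and -5.33 on YES, against -2.54 and -1.67 on CYA, and -4.26 on CYA day 8.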

How the results depend on the processing

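Limma called 0 genes in every alternative run, with smallest adjusted p-values of 0.135 (without YES replicate 1, 2344 genes at an unadjusted p under 0.05) to 1 (slide as a block, or without CYA replicate 3, which are the same fit, 249 genes). The planned slide as a random block could not be fitted on 6 arrays. On all 8 arrays, chosen after seeing the data, it gave 0 calls and 686 genes at an unadjusted p under 0.05. Counts at 2-fold changed with the signal values used. With normexp and quantile normalization, 161 genes were higher and 278 lower on YES on both days, 498 higher and 592 lower on day 4, and 1172 lower on day 10. With the authors' log2 values, 212 were higher on both days, 608 higher on day 4 and 1367 lower on day 10. At 4-fold, 59 were higher and 101 lower on both days, 204 higher and 230 lower on day 4, and 721 higher and 583 lower on day 10. Also requiring 2-fold against CYA day 8 and against CYAs of the same day, chosen after seeing the data, left 57 higher and 65 lower. The other 45 count settings, which include the limma alternatives with 0 calls, stayed within 1.5 times. The 60 named genes checked kept their sign in all 900 checks, each of 1 gene in 1 setting. They included the top-ranked genes and members of runs, which were chosen for 1 direction on both days. That choice largely fixed this outcome. Of 33 list medians, 14 changed sign in some setting. Nitrate assimilation was 0.35 over both days, -0.31 with slide as a block and -0.94 without YES replicate 2. Conidia and conidiophores were 0.86, and -0.05 without YES replicate 1. Monodictyphenone was 0.85, and -0.07 without that array. Glycolysis was -0.03, and 0.02 with normexp and quantile normalization and 0.05 with the authors' values. Proteasome was 0.07, and -0.01 with arrays centred on the median. The cause of these shifts was not tested. With 1 array per medium and day no same-day difference has a replicate.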
